A study of Macaca fascicularis with 132 samples.

Results

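This account concerns 24 genes of blood mononuclear cells that rose when the cells were put into culture and whose level hardly differed between cultures with and without interleukin-15 (IL-15). They were selected on measured values. Counts of the 3 libraries of each animal and group were summed and expressed as CPM (counts per 1000000 of the library total), and log2(CPM + 1) was averaged over 4 animals. A gene was taken if its mean reached 5 CPM in any control group, if its control cultures exceeded the 0 h cells by at least 1.5 on this scale at 6, 24 and 48 h, and if cultures with IL-15 lay within 0.25 of the controls at each of the 5 times measured. The minimum of 5 CPM kept 10811 of the 38550 gene IDs, 157 of these met the culture threshold, and 24 met both thresholds (0.222% of the genes kept and 15.3% of the culture-induced genes). The thresholds thus fixed the culture rise at 6, 24 and 48 h and the small IL-15 effects, which are given below as a description.

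Peripheral blood mononuclear cells (PBMCs), a mixture of lymphocytes and monocytes, came from 4 cynomolgus macaques (Macaca fascicularis), 2 females (38142 and 38155) and 2 males (38147 and 38157). They were cultured outside the body without added cytokine (dose 0 ng/ml) and sampled at 0, 2, 6, 12, 24 and 48 h, or with the heterodimer of IL-15 and its receptor alpha chain at 40 ng/ml and sampled at 2, 6, 12, 24 and 48 h. Each of these 11 groups holds 3 numbered libraries of messenger RNA per animal. The labels give no strain or age, and do not say whether the 3 libraries are separate cultures, so the animal is the replicate. The design text speaks of 6 animals, and those beyond the 4 are not analysed here.

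IL-15 is a cytokine on which natural killer cells and memory CD8 T cells depend. Presented with its receptor alpha chain, it binds the beta and common gamma chains on a responding cell and signals through Janus kinases and STAT5. Taking blood cells out of the body and culturing them is itself a strong stimulus, known to change immediate-early, stress and adhesion genes, and every effect of a cytokine in culture is measured on top of that change. The study's design sets both side by side over the same hours.

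Library totals ran from 16423972 to 87944372 counts (median 27185130), and the summed libraries of 1 animal and group from 54376963 to 126025607. Every member had at least 24 counts in every sum. No ID could be matched to a symbol (0 of 38550 in the reference table used here, 0 of the 24 members), so the roles of the members, the gene lists and the markers of T cells, B cells, natural killer cells, monocytes and other blood cells could not be read, and the labelled cell type was not checked. Members are therefore described by level and time course, with 4 IDs printed. In such bulk samples more cells of a type and more RNA per cell cannot be told apart. Among the libraries, 3 stood apart from their sisters: control 48 h of 38142 (library 1), IL-15 24 h of 38147 (library 2) and control 2 h of 38157 (library 3). Without them the rule also chose 24 genes, 22 of them the same.

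The members were mostly of low to middle abundance. Their mean level at 0 h ran from 0.658 to 160 CPM with a median of 5.86 CPM, against a median of 28.5 CPM over the genes kept, and 12 of the 24 were under 5 CPM at 0 h (10.6% of the genes kept were). Those 12 met the minimum of 5 CPM only in cultured groups, and the rule asks for a rise from 0 h. It thus shapes this difference from the genes kept, and nothing is read from it. The highest control mean of a member lay between 5.37 and 799 CPM (median 26.6), and 4 members reached 100 CPM. Summed over the 24 members, the level at 0 h was 449, 366, 369 and 392 CPM in animals 38142, 38147, 38155 and 38157. It was 1403, 1038, 1259 and 1354 CPM in control cultures at 2 h and 1569, 1298, 1439 and 1484 CPM at 48 h. With IL-15 the sums at 48 h were 1507, 1477, 1563 and 1496 CPM. All cultured sums lay far above all 0 h sums, and the ranges with and without IL-15 overlapped. The member with the highest level at 0 h, which is not named here, supplied 32.6% to 49.7% of these group means.

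That most abundant member stood at 188, 172, 139 and 141 CPM at 0 h in 38142, 38147, 38155 and 38157. In control cultures it stood at 810, 801, 569 and 1017 CPM after 6 h and at 493, 435, 438 and 523 CPM after 48 h. With IL-15 its mean at 6 h was 786 ± 140 CPM (SD, n = 4 animals), against 799 ± 183 CPM in controls. At 48 h it was 544 ± 51.2 against 472 ± 42.8 CPM. The cultured values lay above all 0 h values at each time, and controls and IL-15 cultures overlapped at 6 and 48 h. Within each animal the level was higher with IL-15 at 2 h (0.049 to 0.27, log2(CPM + 1)) and at 12 h (0.044 to 0.351). Signs were mixed at the other times. This member passed the joint test of the IL-15 effects over all times measured (edgeR adjusted p = 0.00877).

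**Figure D1:**
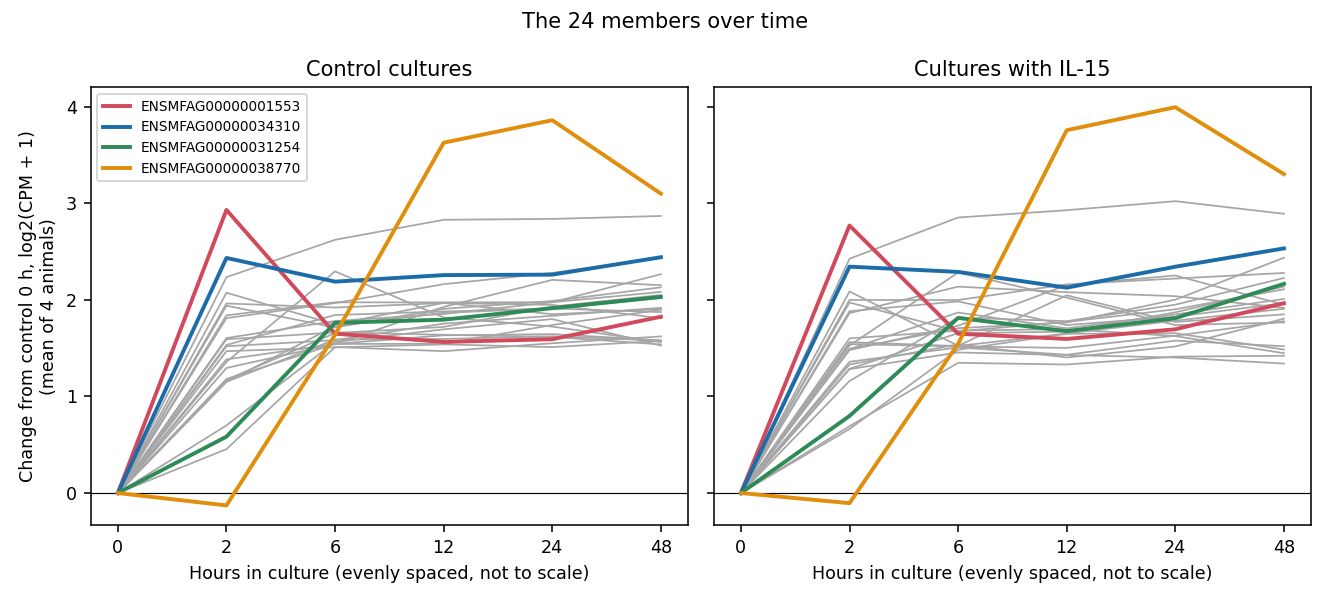
Change of each of the 24 members from control 0 h in log2(CPM + 1), mean of 4 animals, against hours in culture, in control cultures (left) and cultures with IL-15 (right). Coloured lines are the 4 printed IDs and grey lines the other 20 members; most lines climb by 2 or 6 h and stay level, ENSMFAG00000001553 peaks at 2 h, and ENSMFAG00000038770 starts to rise only after 2 h.

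For most members the rise was early and then flat. The median change from 0 h on the log2(CPM + 1) scale was 1.49 after 2 h (range -0.13 to 2.93), and 1.69, 1.84, 1.91 and 1.91 at the 4 later times in order. The change at 2 and 12 h had no threshold of its own but shares the 0 h cells with those that had, so it too is a description. At 2 h, 12 of the 24 members already stood at 1.5 or more (2.51% of the genes kept), and at 12 h 23 did (2.92%). All 4 animals were above all 4 animals of 0 h for 21 members at 2 h (22.1% of the genes kept), 23 at 6 h (28.7%) and 24 at 12, 24 and 48 h (33%, 40.2% and 40.2%). Between 6 and 48 h the control means of a member spanned 0.26 at the median (0.04 to 2.22), against 0.33 over the genes kept and 0.47 over the 157 culture-induced genes. The span was under 0.5 for 21 members and for 68.7% of the genes kept. The time of the highest control mean was 48 h in 13 members and 24 h in 6, with 2, 2 and 1 members at 2, 6 and 12 h and 0 at 0 h. With IL-15 it was 48 h in 12, 24 h in 5 and 6 h in 4. On this scale of library totals the median gene kept itself moved from -0.08 at 2 h to 0.33 at 48 h. With the TMM scaling described below, the members' median changes were 1.57, 1.54, 1.62, 1.64 and 1.66 at the 5 times in order. Peak times of the genes kept were not counted, so nothing is read from the late peaks.

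The step from 2 to 12 h in control cultures asks whether members were still moving after the first hours. It involves none of the groups of the culture thresholds, although both groups also served as the controls of the IL-15 thresholds at their times. In edgeR's quasi-likelihood test with TMM scaling (trimmed mean of M-values, which centres the bulk of genes), 7 of 24 members were higher at 12 h and 6 lower (adjusted p under 0.05). Over all 18197 genes tested, 30.8% were higher and 27.6% lower, so the members' 29.2% and 25% lay near the background. The 7 that rose further had log2 fold changes from 0.26 to 4.96 (median 0.71). They kept 1 sign in all 4 animals in log2(CPM + 1) on library totals. They had the same sign between IL-15 cultures of 2 and 12 h. On library totals, the scale of the rule, their rises were large enough that the IL-15 thresholds required this. The 6 that fell had log2 fold changes from -1.73 to -0.25 (median -0.34). Of these, 3 kept 1 sign in all 4 animals in log2(CPM + 1) on library totals, and 5 had the same sign between IL-15 cultures of 2 and 12 h. The rule holds IL-15 cultures near the controls at both times, so these shared signs are no separate evidence. The split depended on the scaling. With library totals alone, the scale of the rule, 16 members were higher and 1 lower, against 44.5% and 16% of all genes. The 7 rises held on both scales, and of the 6 falls only that of ENSMFAG00000001553 did. Dropping TMM moved the median log2 fold change over all genes tested from 0.06 to 0.39. Such an upward shift keeps rises and removes small falls, so this difference between rises and falls is no separate evidence. The 11 members not called had log2 fold changes between -0.41 and 0.23. Column names carry tokens such as Lib1 GL66 that the labels do not explain. Within sets of libraries sharing a token, differences were taken in log2(CPM + 1) on library totals, with no test. On that scale all libraries together gave 10 of the 13 called members the direction of their TMM call. In the 4 sets that hold both times, 11, 13, 12 and 10 of the 13 had the direction that all libraries gave on the same scale, with 1 to 5 libraries a time and animals that differ between the times.

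The 4 IDs printed are the 2 highest and 2 lowest of this step among the members that passed with the same sign in 4 of 4 animals, 7 higher and 3 lower. ENSMFAG00000038770 was the latest to rise. It stood at 0.81, 0.833, 0.697 and 0.292 CPM at 0 h in animals 38142, 38147, 38155 and 38157, and at 0.468, 0.581, 0.453 and 0.512 CPM in control cultures at 2 h. At 6 h the values were 4.1, 3.28, 2.36 and 8.35 CPM, and at 12 h 32.3, 13.6, 13 and 24.1 CPM. The 2 h values overlapped those at 0 h, while all values from 6 h on were higher. The log2 fold change between 2 and 12 h was 4.96 ± 0.42 (SE; edgeR adjusted p = 6.39e-12). Over the 5 times in order, the level with IL-15 was 0.528 ± 0.0456, 4.01 ± 1.72, 23 ± 10.3, 25.4 ± 3.98 and 15.3 ± 1.85 CPM (SD, n = 4 animals). The matching controls were at 0.504 ± 0.0575, 4.52 ± 2.65, 20.7 ± 9.21, 24.7 ± 12.8 and 13.6 ± 4.58 CPM. IL-15 and control values overlapped at all 5 times.

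ENSMFAG00000031254 rose mostly between 2 and 6 h. Its mean change from 0 h in control cultures was 0.58, 1.76 and 1.8 at 2, 6 and 12 h (log2(CPM + 1)). It was at 1.57, 1.41, 2.37 and 2.85 CPM at 0 h in the same order of animals, at 4.83, 2.53, 3.44 and 3.43 CPM in control cultures at 2 h and at 10.6, 7.16, 9.77 and 10.5 CPM at 12 h. The 2 h values overlapped those of 0 h, although each animal was higher at 2 h, and the 12 h values lay above both. The log2 fold change between 2 and 12 h was 1.09 ± 0.14 (SE; edgeR adjusted p = 1.64e-08). Controls reached 11.2 ± 0.486 CPM at 48 h (SD, n = 4 animals) and IL-15 cultures 12.5 ± 1.57 CPM.

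ENSMFAG00000001553 peaked early. It went from 17.7, 16.1, 15.9 and 16.9 CPM at 0 h to 122.1, 113.6, 173.7 and 131.9 CPM in control cultures at 2 h, and was down to 57.3, 45.1, 51 and 51.9 CPM at 12 h. The 3 sets of values did not overlap. The log2 fold change between 2 and 12 h was -1.73 ± 0.09 (SE; edgeR adjusted p = 1.86e-17), and -1.4 with library totals alone. With IL-15 the level over the first 3 times was 120 ± 16.3, 54.8 ± 8.69 and 52.5 ± 5.93 CPM (SD, n = 4 animals), against 135 ± 26.6, 54.5 ± 5.05 and 51.3 ± 4.99 CPM in controls. Within each animal the 2 h level was lower with IL-15 (-0.346 to -0.036, log2(CPM + 1)), and signs were mixed at the later times. This ID passed the joint IL-15 test (edgeR adjusted p = 0.00159). At 48 h IL-15 cultures stood at 68 ± 4.59 CPM and controls at 61.8 ± 6.95 CPM, above 0 h in every animal.

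ENSMFAG00000034310 reached its level by 2 h. It was at 6.75, 6.93, 7.05 and 7.6 CPM at 0 h, at 46.4, 35.1, 48.3 and 42.2 CPM in control cultures at 2 h and at 43, 30.6, 44.1 and 34.5 CPM at 12 h, so that the 2 h and 12 h values overlapped. Its log2 fold change from 2 to 12 h was -0.51 ± 0.09 (SE; edgeR adjusted p = 1.94e-05) with TMM scaling and -0.18 with library totals alone (edgeR adjusted p = 0.116). The call thus rests on the scaling. In log2(CPM + 1) on library totals, the difference within the libraries of Lib1 GL66 was 0.0607. At 48 h the controls held 43.1 ± 5.22 CPM (SD, n = 4 animals) and the IL-15 cultures 45.8 ± 2.83 CPM. This ID too passed the joint IL-15 test (edgeR adjusted p = 0.0242), although on library totals the animals differed in sign at each time.

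**Figure D2:**
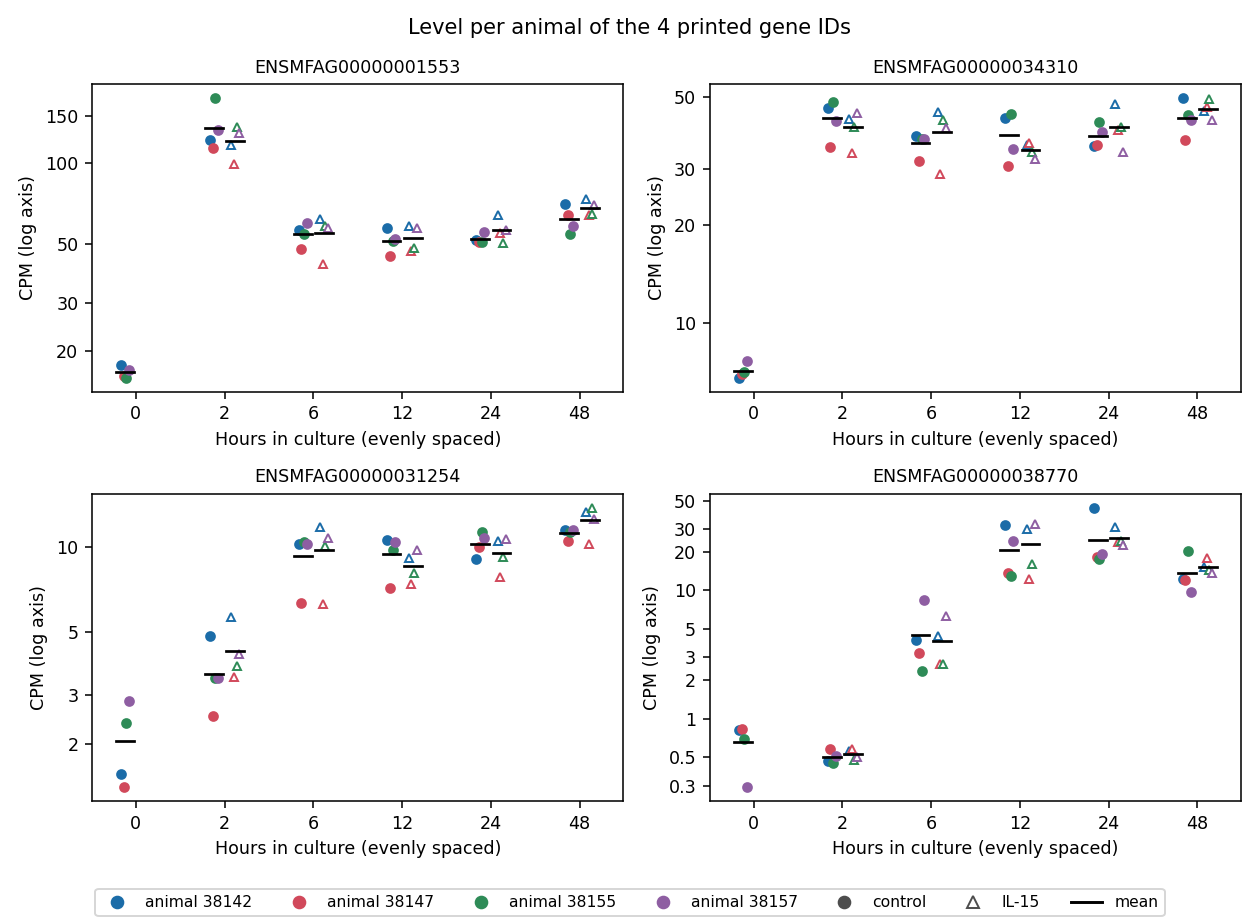
Level in CPM (log axis) of the 4 printed IDs against hours in culture, 1 point per animal, with control cultures as filled circles, IL-15 cultures as open triangles and the mean as a bar. In each panel the IL-15 points overlap the control points at each time, and all values from 6 h on lie above the 0 h values. Such overlap does not show that IL-15 made no difference within an animal. ENSMFAG00000001553 and ENSMFAG00000034310 passed the joint IL-15 test.

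Between cultures with and without IL-15, the mean difference of a member was at most 0.24 in size at any time, by the rule. The largest of the 5 was 0.2 at the median member and 0.09 at the lowest. Medians over the members were 0.04, -0.00 (that is, -0.0014), -0.07, -0.05 and 0.01 at 2, 6, 12, 24 and 48 h. A mean near 0 can hide animals that differ, and this was looked at directly. Of the 480 differences of single animals (24 members, 5 times, 4 animals), 6 were 0.5 or more in size and 0 were 1 or more. In 20 members no animal reached 0.5 at any time. Differences of at least 0.5 made up 1.23% over all 2582 genes that met the IL-15 threshold, whatever their culture change, close to the 6 of 480 here, and 19.1% over all genes kept. Animal 38155 gave 4 of the 6, animals 38142 and 38147 gave 1 each, and 38157 gave 0. The largest was a rise of 0.84 with IL-15 at 12 h in 38155, in the member with the third highest level at 0 h. That member stood at 259, 81.2, 95.4 and 97.5 CPM in control cultures at 12 h and at 215.7, 88.9, 171.1 and 112.4 CPM with IL-15. IL-15 cultures were lower in 38142 and higher in the other animals, and the 2 groups overlapped.

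The spread of the IL-15 difference between animals was small but not negligible beside the threshold of 0.25. Its SD over the 4 animals was 0.11, 0.12, 0.13, 0.15 and 0.15 at the median member at 2, 6, 12, 24 and 48 h, and up to 0.52 at 24 h. Over the genes kept the median SD was 0.12, 0.11, 0.17, 0.21 and 0.18. In the joint test of the 5 IL-15 contrasts, 7 of 24 members passed (29.2%; edgeR adjusted p under 0.05), against 53.9% of all genes. The rule used these contrasts, so nothing is read from that count. The largest mean effect was 0.13 to 0.23 in size among the members that passed and 0.09 to 0.24 among the others. The count was 3 without animal 38142 or without 38155, and 4 with library totals alone.

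The thresholds cut through a dense region. Of the members, 13 lay within 0.05 of the IL-15 threshold, with the highest at 0.238, and the nearest culture-induced gene outside it was at 0.251, with 8 such genes within 0.05. On the culture side, 11 members lay within 0.1 of the threshold, the lowest at 1.509, and 10 genes with small IL-15 effects fell short by less than 0.1, the nearest at 1.497. In 9 of the 24 members all 4 animals reached 1.5 at 6, 24 and 48 h, and the lowest value of a single animal was 0.91.

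**Figure D3:**
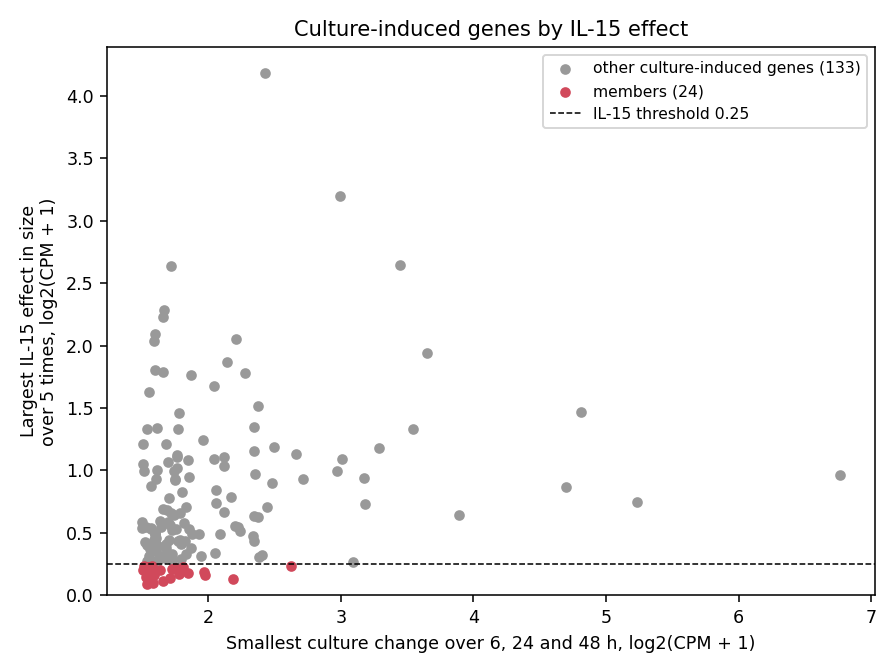
The 157 culture-induced genes, with the smallest change from 0 h over 6, 24 and 48 h on the x axis and the largest IL-15 effect in size over the 5 times on the y axis, both in log2(CPM + 1), 1 point per gene. The 24 members (red) lie under the dashed line at 0.25, by the rule, and the other genes lie above it, the nearest at 0.251.

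Most genes past the same culture threshold exceeded the IL-15 threshold at some time, and by the rule such genes are not members. Of the 157 culture-induced genes, 77.7% lay within 0.25 of the controls with IL-15 after 2 h, and 99, 47, 52 and 51 genes did at the 4 later times in order. Those outside at 12 h were lower with IL-15 in 82 cases and higher in 28, and at 48 h in 75 and 31. This is on the scale of library totals, where the median gene kept was itself at -0.15 and -0.07 at these times. The share within 0.25 was 29.9% at 12 h, against 47.9% over all genes kept, and 32.5% against 48.1% at 48 h. Whether culture-induced genes are more often moved by IL-15 than others was not tested.

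The 4 animals differed in their levels of the members, a measure the rule did not use. In the joint test of the animal term over the 44 sums with TMM scaling, 18 of 24 members passed (75%; edgeR adjusted p under 0.05), against 80.2% of all genes, near the background. With library totals alone, an alternative chosen after seeing the data, 23 members passed. All genes then gave 14730 of 18197, against 14588 with TMM. How near the members lay to the background thus depended on the scaling. The values that follow are on library totals. Averaged over the 11 groups, a member's highest and lowest animal lay 0.36 apart at the median (0.19 to 1.39, log2(CPM + 1)), against 0.38 over the genes kept. Animal 38147 was the lowest of the 4 for 19 members and the highest for 0, against 43% and 20.4% of the genes kept. Its median deviation from the group means was -0.16 over the members and -0.07 over the genes kept, on the same side. Animal 38142 was the highest for 11 members, 38157 for 8 and 38155 for 5, against 24.5%, 29.7% and 25.4% of the genes kept. These differences from the genes kept were not tested. The widest gap was in the member with the third highest 0 h level, at 50.6, 18.7, 29 and 30.7 CPM at 0 h and 223.8, 116.5, 130.8 and 107.8 CPM in controls at 48 h, so 38142 was highest before and after culture.

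**Figure D4:**
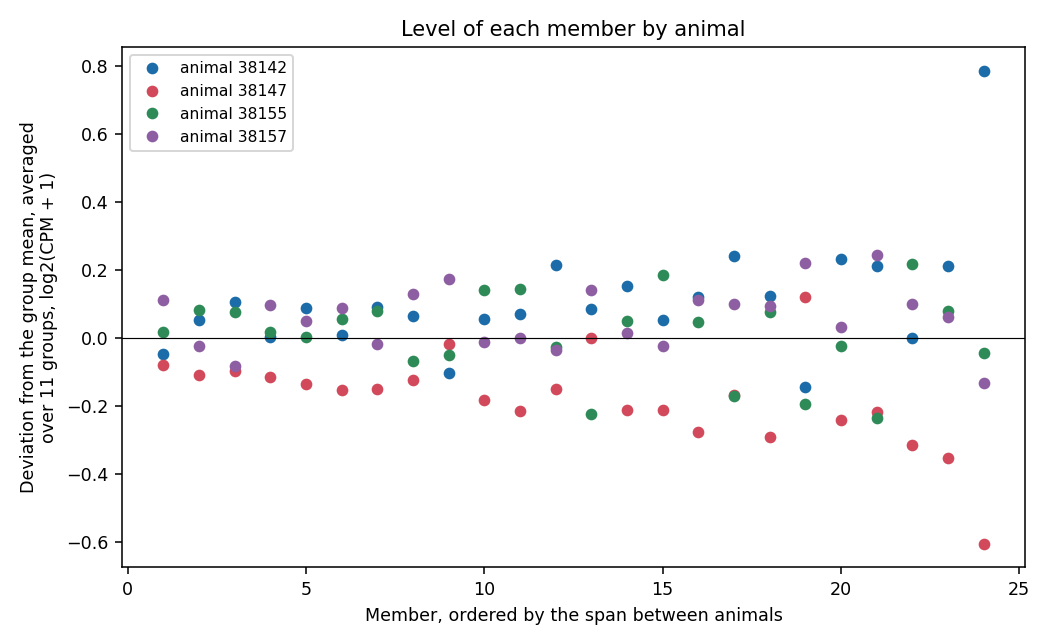
Deviation of each animal from the group mean, averaged over the 11 groups, in log2(CPM + 1), for each of the 24 members ordered by the span between animals. Animal 38147 is the lowest for 19 members, and the member at the right end has 38142 at 0.78 and 38147 at -0.61.

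Females and males were compared on each animal's average over the groups. Of the 24 members, 0 passed (limma, adjusted p under 0.05) and 1 had an unadjusted p under 0.05. Of all genes 0.0659% passed (12 genes, each lower in females), and with any 1 animal left out 0 or 1 gene passed. Both females were above both males for 10 members and both males above both females for 2, against 20.9% and 14.4% of the genes kept. With 2 animals of each sex an exact permutation test cannot reach a small p, and sex cannot be told apart from other differences between the animals.

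Whether a gene belonged to the 24 depended on how the libraries were scaled. On the library-total scale of the rule the median gene kept was itself up by 0.2, 0.26, 0.33 and 0.33 at 6, 12, 24 and 48 h against 0 h, and at -0.15, -0.14 and -0.07 with IL-15 against control at 12, 24 and 48 h. With TMM scaling the medians at all times lay between -0.02 and 0.04. The members' median culture change was then 1.54, 1.62, 1.64 and 1.66 at 6, 12, 24 and 48 h, and their median IL-15 effect 0.1, 0.11 and 0.11 at 12, 24 and 48 h, up to 0.41 for a single member. Of the 24, 13 met the culture threshold with TMM, 12 the IL-15 threshold and 5 both. The rule with TMM chose 12 genes, so 7 of these were not among the 24. Of the printed IDs only ENSMFAG00000031254 was chosen on both scales. All 24 were still at least 1.19 above 0 h at 6, 24 and 48 h with TMM.

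**Figure D5:**
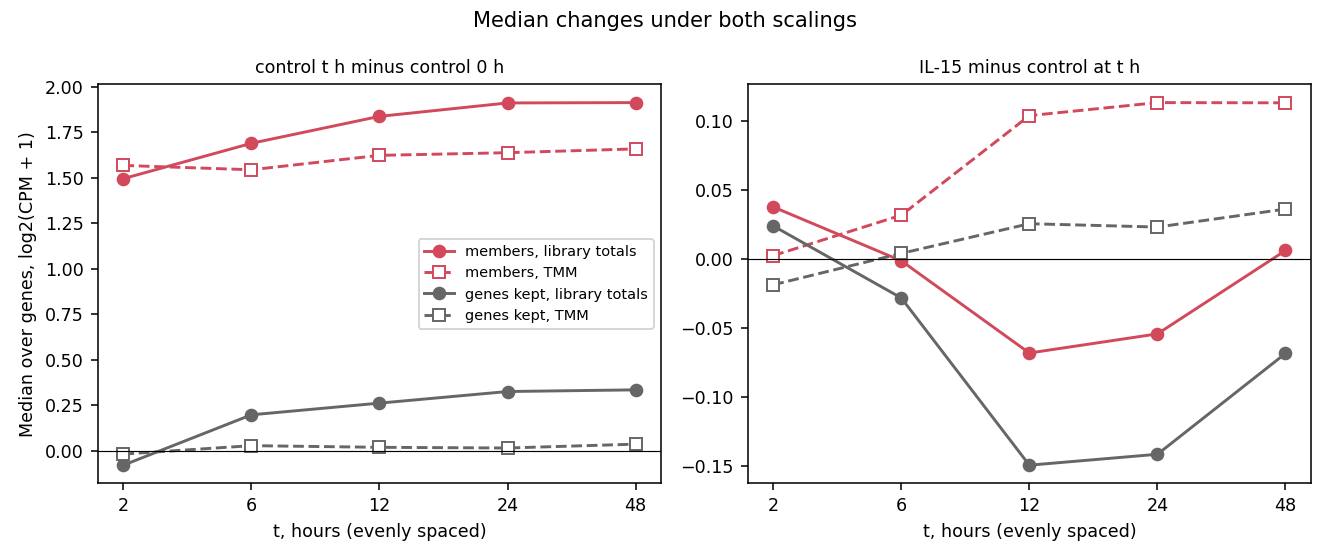
Median change over the 24 members (red) and the 10811 genes kept (grey), in log2(CPM + 1), with library totals (solid lines, circles) and TMM scaling (dashed lines, squares), for control cultures against 0 h (left) and for IL-15 against control (right). TMM brings the genes kept close to 0 on both sides and moves the members' IL-15 effect at 12 to 48 h from about 0 to about 0.1.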

How the data were processed

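What the authors deposited are raw, whole-number counts, in a table of 38550 cynomolgus and another of 35432 rhesus gene IDs. Aligner, counter, build, annotation and strand setting: not given in the sources used here, so copies and overlapping genes cannot be told apart. The labels' protocols name Qiagen RNeasy for RNA and KAPA mRNA HyperPrep for libraries. The cynomolgus table was used, the rhesus table as an alternative. The members, lists and tests were chosen with earlier results of these data known. IDs to print were the 2 highest and 2 lowest members of the step from 2 to 12 h among those past the test with 1 sign in 4 animals; the planned lists of symbols could not be run.

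Counts of the 3 libraries per animal and group were summed (44 sums). No pair of sister libraries agreed within sampling noise (lowest chi-square per degree of freedom 3.57 over 132 pairs). All genes were tested with edgeR 4.0.16 (quasi-likelihood, robust, TMM, filterByExpr, 18197 genes) in R 4.3.3, with animal and group terms. The same animals occur in every group, and deviations of an animal's control and IL-15 sums correlated in all 20 pairs (lowest r 0.578), so the animal is the pairing block. Sexes were compared with limma 3.58.1 on animal means of log2 CPM (prior count 2); DESeq2 1.42.0 was an alternative. P-values were adjusted by Benjamini-Hochberg over all genes. Group sums and the rule were computed in Python 3.11.15. The scripts were tested on simulated data. Amplified reads are not separate molecules, and counting error understates the spread.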

Additional observations from a re-analysis of the deposited data

Results flagged for a closer look

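Among the 44 sets of 4 animals behind the printed IDs (4 IDs in 11 groups), 3 held an animal far from the other 3, where chance gives about 1 in 20, or 2.2. ENSMFAG00000038770 stood at 43.91 CPM in animal 38142 in control cultures at 24 h, against 17.6 to 19.2 CPM in the others. In control cultures at 6 h, animal 38147 was low for ENSMFAG00000031254, at 6.345 CPM against 10.3 to 10.4 CPM, and for ENSMFAG00000034310, at 31.66 CPM against 37.1 to 37.9 CPM.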

How the results depend on the processing

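The number of genes chosen was 24 as reported, 12 with TMM library sizes, 13 with log2(CPM + 2) and 32 with log2(CPM + 0.25), 11 and 32 with IL-15 effects under 0.2 and 0.3, 62 and 8 with the culture threshold lowered and raised by 0.25, and 9 with the culture threshold met in every animal. It was 21 in the rhesus table, where the overlap with the 24 was not counted. With 1 animal or 1 library number left out it was 19 to 28, of which 13 to 21 were among the 24. For the step from 2 to 12 h, library totals alone, an alternative chosen after seeing the data, gave 16 members higher, 1 lower and 2916 genes lower, and the share higher among all genes called was 73.5% against 52.7% with TMM. With 1 animal or library number left out, 5 to 7 members were higher and 5 or 6 lower. Within sets of libraries that share a token in the column names, scale and libraries both change, since differences are in log2(CPM + 1) on library totals. In Lib1 GL66, Lib1 GL67, Lib1 GL75 and Lib2 GL75, 8, 10, 9 and 13 of the 13 called members had the direction of the TMM call, against 10 with all libraries on that scale, a baseline also added after seeing the data. ENSMFAG00000034310 was at 0.0607 in Lib1 GL66. In the joint IL-15 test, 4 members and 5033 genes were called without the animal block (no replicate block), 12 members with the library number as a replicate block and libraries entered singly, 4 with library totals alone, and 3 to 8 with 1 animal or library number left out. Library numbers did not pair the samples by the limit set (30 of 60 pairs with r above 0.1, median 0.0955). Between sexes 0 to 11 genes were called with 1 animal or library number left out, and 0 members under every alternative run. Causes of these shifts were not tested. Low members at 0 h (under 1 CPM) limit the precision of their folds.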

Other observations

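The mirror image of the rule, genes that fell by at least 1.5 in control cultures at 6, 24 and 48 h with IL-15 effects under 0.25 at all 5 times, held 7 genes, 9.33% of the 75 genes that fell so far. The corresponding share among genes that rose was 15.3%, and the difference was not tested. Sister libraries of 1 animal and group differed by an SD of 0.16 (log2(CPM + 1)) at the median member, against 0.17 over the genes kept.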
